A study of Mus musculus with 4 samples.

Results

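The laminins, nidogens and perlecan are the main components of the basement membrane besides its collagens. In RNA-seq of mouse tail tip fibroblasts (TTF) they were followed through 9 genes chosen by symbol, *Lama2*, *Lama4*, *Lama5*, *Lamb1*, *Lamb2*, *Lamc1*, *Nid1*, *Nid2* and *Hspg2*, and all 9 were found among the 23924 genes of the expression matrix. Transgenic males (TG) of the C57BL/6J-TgBAC8-2087 line were hemizygous Tg2087/+ and carried *Xic* sequence with *Xist* in an autosome, and their wildtype male littermates (WT) were +/+. Fibroblasts of both genotypes had been immortalized with SV40 large T, after which the cells were tetraploid. Each genotype had 2 libraries. The age of the mice is not given in the sources used here, nor whether separate mice or cultures gave the libraries of 1 genotype, so that p-values measure only the spread between these libraries. A difference between genotypes and one between the immortalized cultures cannot be told apart.

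Levels are FPKM, the fragments per kilobase of gene, scaled to library depth, that the authors computed from gene counts. The reads behind them were recovered from the ratios between libraries, whose totals lay between 9465712 and 14639946. *Xist*, the check of the transgene, was listed at 0 and 0.108 FPKM in WT, from 0 and 28 reads, and at 2.31 and 2.28 FPKM in TG. Of 8 fibroblast markers, *Vim* (2147 to 2547 FPKM), *Col1a1* (407 to 867 FPKM) and *Thy1* (452 to 681 FPKM) were abundant in every library, whereas *Fap* was listed at 0 in 3 libraries and *Pdgfra* lay between 0.0999 and 1.13 FPKM.

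A basement membrane is a thin sheet of matrix that cells lay down beneath epithelia and around muscle, nerve, fat and vessels. Its laminins are cross-shaped trimers of an alpha, a beta and a gamma chain, and they polymerize on the cell surface, where integrins and dystroglycan hold the alpha chain. Nidogens bind the gamma chain encoded by *Lamc1* and join the laminin network to collagen IV, and perlecan, the heparan sulphate proteoglycan encoded by *Hspg2*, binds both and holds growth factors. Fibroblasts are a main source of the nidogens in skin.

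The genes lie on 8 chromosomes. The table of RefSeq promoters (GRCm38.p6, the build of mm10, from 250 bases before to 50 after a start assigned there) holds 6 of them. *Lama4*, *Lamc1* and *Nid2* have no entry there. The assigned start need not be the outer bound of the gene, which is 180225904 for *Lama5* and 31265146 for *Lamb1*. For *Lama2*, on the minus strand, the window runs from 27616893 to 27617192 and the gene reaches 27617191, so that this window lies almost wholly within the gene. The promoters of *Lama5* and *Lamb1* are shown because these were the most abundant alpha and beta chains of the cells. They lie at chr2:180225810-180226109 on the minus strand and at chr12:31265043-31265342 on the plus strand and are written 5′ to 3′, with capitals for the GC box GGGCGG on either strand.

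Lama5: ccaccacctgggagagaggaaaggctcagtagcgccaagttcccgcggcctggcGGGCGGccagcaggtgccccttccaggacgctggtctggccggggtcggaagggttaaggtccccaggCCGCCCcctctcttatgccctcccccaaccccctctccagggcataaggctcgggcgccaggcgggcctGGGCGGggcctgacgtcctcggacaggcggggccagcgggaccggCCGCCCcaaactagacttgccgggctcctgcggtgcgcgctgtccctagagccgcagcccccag

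Lamb1: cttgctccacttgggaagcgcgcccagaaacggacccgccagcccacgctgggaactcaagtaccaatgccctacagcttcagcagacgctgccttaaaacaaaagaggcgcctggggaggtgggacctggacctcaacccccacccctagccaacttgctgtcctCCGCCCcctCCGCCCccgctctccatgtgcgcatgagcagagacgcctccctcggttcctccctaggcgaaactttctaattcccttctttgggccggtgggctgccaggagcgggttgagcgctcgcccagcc

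The GC box occurred 4 times in the window of *Lama5* and 2 times in that of *Lamb1*. It was present in 5 of the 6 windows, all but that of *Lamb2*, and in 35.7% of the 32851 promoters of the table. The window of *Lama5* had a GC content of 72.7% with 24 CG dinucleotides and that of *Lamb1* 63.7% with 18, against medians of 52.7% and 7 over all promoters. Of 4 further motifs searched on both strands, the TATA box TATAAA (13.6% of all promoters), the AP-1 motif TGANTCA (7.81% of all promoters) and the E-box CACGTG (7.15% of all promoters) had no match in these windows. The TEAD motif GGAATG matched in the window of *Nid1* and in 14.7% of all promoters.

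TG was compared with WT to ask which basement membrane transcripts differed in cells with the autosomal transgene. *Nid2* was lower in TG at an adjusted p under 0.05, at 48.9% ± 4.23 of its WT level (SD propagated from 2 libraries per genotype). *Lama5* stood at 43.7% ± 6.02 and *Lamc1* at 67.9% ± 8.69 of WT without reaching that threshold, and *Lamb1*, *Lamb2*, *Nid1* and *Hspg2* stood between 77.8% and 91.2%. The test was limma on log2(FPKM + 0.5) over the 11524 genes whose FPKM averaged 0.5 or more, adjusted by Benjamini-Hochberg, and 7 of the 9 genes entered it. *Lama2* and *Lama4* fell below the filter. In these bulk libraries, fewer cells that make a transcript and less of it per cell cannot be told apart.

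With the study's thresholds, a log2 fold change beyond 1 in either direction at an adjusted p under 0.01, limma called 0 of the 7 genes lower, against 0.469% of all tested genes, and 0 higher, against 0.607%. At an adjusted p under 0.05 it called 1 lower (background 1.54%) and 0 higher (background 2.59%). At an unadjusted p under 0.05, *Lama5*, *Lamc1* and *Nid2* were lower, 3 of 7, where the background was 6.88%. Both TG libraries lay below both WT libraries for 5 of the 7 genes, against 20.3% of all tested genes, and above them for 0, against 30.2%. Voom, limma's method for counts, was run on the recovered reads as an alternative. By the study's thresholds it called *Lama5* and *Nid2* lower, 2 of 7, with a background of 1.26%, and at an adjusted p under 0.05 it added *Lamc1*, 3 of 7, with a background of 4.28%. All 7 genes had a log2 fold change below 0, and so did 42.5% of all tested genes. The median log2 fold change was -0.39 for the 7 genes and 0.071 for all tested genes. Over all tested genes limma called 54 lower and 70 higher, and after quantile normalization 55 and 47.

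**Figure D1:**
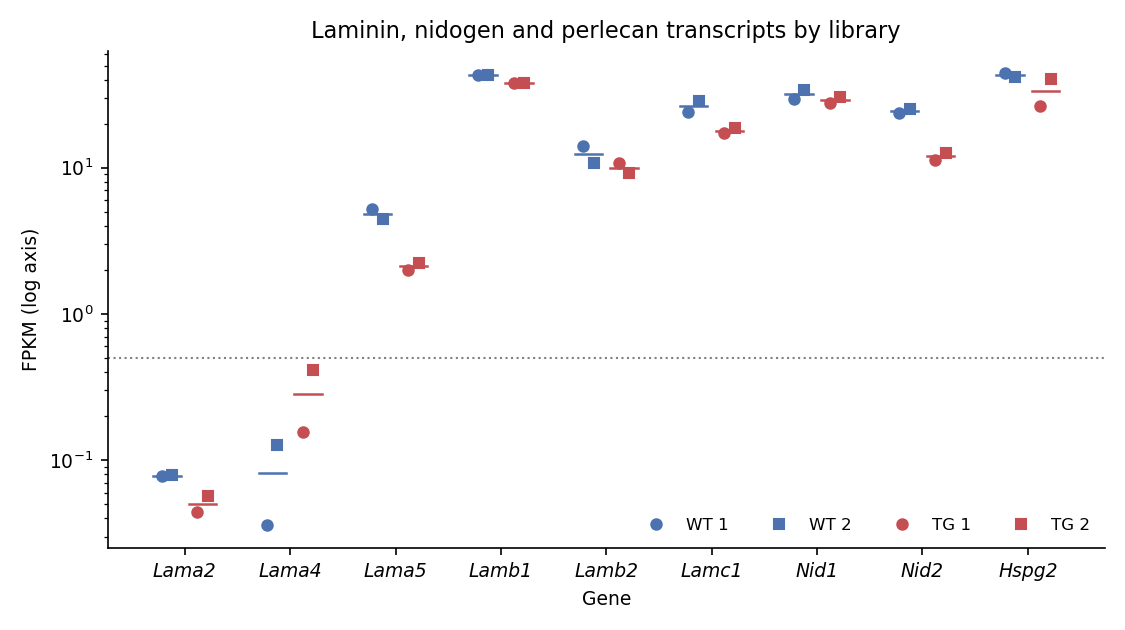
FPKM of the 9 genes on a log axis, with a point for each library (blue WT, red TG, circles for replicate 1 and squares for replicate 2) and a short line at each genotype's mean. The dotted line is the mean FPKM of 0.5 that the test required; *Nid2* and *Lama5* show the widest gaps between genotypes above it, and *Lama2* and *Lama4* lie below it.

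The alpha chain decides which receptors a laminin can bind. *Lama5* encodes the alpha chain of most adult epithelial and vascular basement membranes. It had 5.21 FPKM in WT 1 and 4.47 FPKM in WT 2, from 554 and 736 reads, whereas TG 1 and TG 2 had 1.98 and 2.24 FPKM, from 266 and 279 reads. The genotypes did not overlap, and the gap between them was wider than the gap within either. The log2 fold change was -1.03 (SE, the standard error, 0.27, limma adjusted p = 0.0592). Voom gave -1.25 (adjusted p = 7.16e-04), so that the call of *Lama5* rests on the test used.

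*Lama4* encodes an alpha chain of vessels, fat and peripheral nerve that lacks the short arm needed for polymerization. It was the only one of the 9 genes with a higher mean in TG, but it was near the limit of detection. WT 1 held 2 reads, WT 2 held 11, TG 1 held 11 and TG 2 held 27, which correspond to 0.0358, 0.127, 0.156 and 0.414 FPKM. Both TG libraries lay above both WT libraries, with WT 2 and TG 1 close together and a wide gap between the TG libraries. Summed over libraries and scaled to their totals, the TG reads were 3.07 times the WT reads (exact 95% interval 1.60 to 6.27, which covers counting error only and compares these libraries, not the genotypes). With all genes above 0 tested, its log2 fold change was 0.42 (limma adjusted p = 0.486), a value that the pseudocount pulls towards 0.

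*Lama2* encodes the alpha chain of the muscle and Schwann cell basement membrane. It had 7 and 11 reads in WT and 5 and 6 in TG, or 0.0773 and 0.0786 FPKM against 0.0438 and 0.0567 FPKM. The ratio of TG to WT reads was 0.641 with an exact 95% interval from 0.274 to 1.43, so that no difference was detectable at this depth. Of the other alpha chains, *Lama1* had 4 reads in WT 1 and 0 elsewhere and *Lama3* had 1 read in TG 1 and 0 elsewhere. The exact 95% interval of a count of 0 reaches 3.69 reads. A floor of 3 reads, slightly below that limit, corresponds for *Lama1* to 0.0219 to 0.0289 FPKM in the libraries without a read.

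Among the beta chains, *Lamb1* was the most abundant of the 9 genes by its mean over all libraries. Its levels were 42.8 and 43.0 FPKM (WT) against 37.8 and 38.0 FPKM (TG). The libraries of each genotype nearly coincided and the genotypes did not overlap, with TG at 88.4% ± 0.469 of WT. The log2 fold change was -0.18 (SE 0.17, limma adjusted p = 0.631). *Lamb2*, the beta chain of the kidney filter and the neuromuscular junction, had 14.0 and 10.7 FPKM (WT) against 10.8 and 9.13 FPKM (TG). WT 2 lay just below TG 1, so the genotypes overlapped, with a log2 fold change of -0.29 (SE 0.22, limma adjusted p = 0.520). On the same scale WT 2 differed from WT 1 by -0.37, which is more than the genotypes differed. *Lamb3*, a chain of epithelial laminin, lay between 0.749 and 1.58 FPKM, with a log2 fold change of -0.13 (limma adjusted p = 0.898).

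*Lamc1* encodes the gamma chain shared by most laminins. It had 24.2 and 28.5 FPKM in WT, from 1710 and 3118 reads, and 17.2 and 18.6 FPKM in TG, from 1533 and 1535 reads. The genotypes did not overlap, and the WT libraries stood further apart than the TG libraries. The log2 fold change was -0.54 (SE 0.19, limma adjusted p = 0.147), and voom gave -0.62 (adjusted p = 0.0270). *Lamc3* had 7 reads in TG 2 and 0 in the other libraries.

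The nidogens are closely related linkers that can replace each other in many tissues. *Nid2* had 23.7 FPKM in WT 1 and 25.2 FPKM in WT 2, from 1064 and 1746 reads, whereas TG 1 and TG 2 had 11.3 and 12.6 FPKM, from 639 and 660 reads. The libraries of each genotype were close and the genotypes were far apart. *Nid2* fell by 1.004 on the log2 scale (SE 0.19, limma adjusted p = 0.0169), with 2 of 2 TG libraries under the WT range. *Nid1* had 29.7 and 34.2 FPKM (WT) against 27.9 and 30.4 FPKM (TG), which overlap, with a log2 fold change of -0.13 (SE 0.18, limma adjusted p = 0.756). The adjusted p of *Nid2* was 0.0410 without TG 2 and above 0.05 when any of the other libraries was left out, at 0.0800 without TG 1, 0.0830 without WT 1 and 0.168 without WT 2. It was 0.0879 with all genes above 0 tested, 0.0683 without the variance trend and 3.86e-04 by voom.

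Perlecan has one of the longest transcripts of the basement membrane, and *Hspg2* was the second most abundant of the 9 genes. WT 1 and WT 2 had 44.2 and 41.8 FPKM (5869 and 8577 reads), and TG 1 and TG 2 had 26.3 and 40.5 FPKM (4403 and 6290 reads). The TG libraries stood 1.54-fold apart, and TG 2 lay just below WT 2. TG 1 had 61.2% and TG 2 had 94.3% of the mean WT level. Among the 5882 tested genes that averaged 10 FPKM or more, 5.22% differed as much as *Hspg2* between the TG libraries. The log2 fold change was -0.39 (SE 0.22, limma adjusted p = 0.369), -0.08 without TG 1 and -0.70 without TG 2. For the 869 tested genes with an effective length of at least 7 kb, which include *Hspg2*, *Lama5* and *Lamc1*, the median log2 fold change was -0.11. Their median log2 difference of TG 2 from TG 1 was -0.03, against -0.04 for all tested genes, but that of WT 2 from WT 1 was 0.20, against 0.012, so that the WT libraries differed for long transcripts. The part of transcript length in the values of these genes was not tested.

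**Figure D2:**
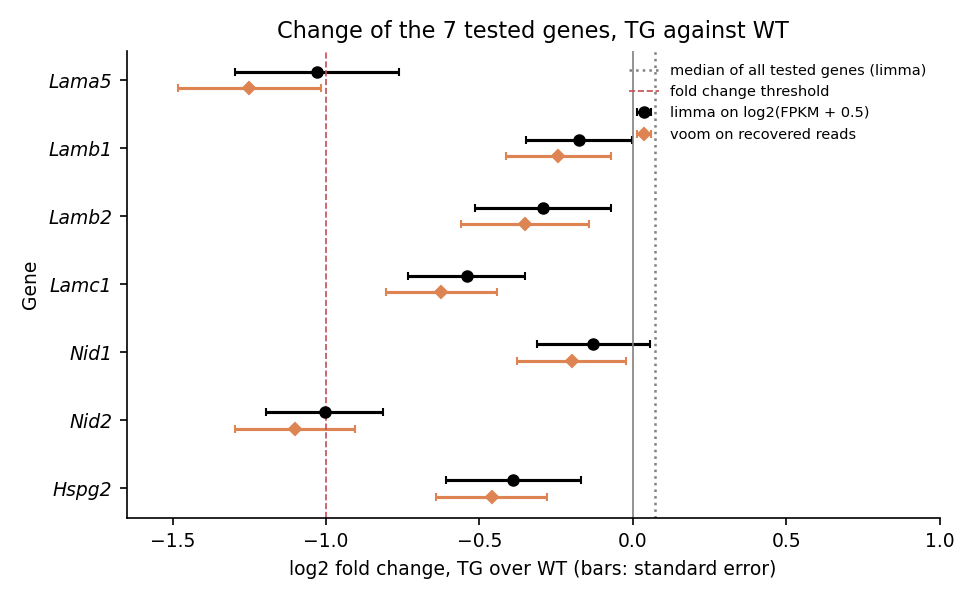
Log2 fold change between TG and WT with its SE for the 7 tested genes, by limma on log2(FPKM + 0.5) (black) and by voom on the recovered reads (orange). All points lie left of 0, with *Lama5* and *Nid2* at -1.03 and -1.004 by limma beside the dashed threshold of -1, and the dotted line marks the median of all tested genes at 0.071.

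Since FPKM is scaled to gene length, levels could be summed within a class of chains. The alpha chain transcripts, *Lama1* to *Lama5*, summed to 5.37 and 4.68 FPKM (WT) against 2.19 and 2.71 FPKM (TG), well below the beta chains in every library. The beta chains summed to 58.4 and 54.5 FPKM (WT) against 49.6 and 48.0 FPKM (TG). Neither class overlapped between genotypes. The ratio of the TG mean to the WT mean was 0.489 for the alpha chains and 0.865 for the beta chains. Beta chain transcripts were 10.9 and 11.6 times as abundant as alpha chain transcripts in WT and 22.6 and 17.7 times in TG. With 2 libraries in each genotype, the smallest p of a two-sided exact permutation test is 0.33, which is what it gave for each of these sums and for their ratio, so they are reported as levels.

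*Lama5* made up 97.1% and 95.6% of the alpha chain transcripts in WT and 90.5% and 82.7% in TG. The difference between TG and WT was -9.74 percentage points (exact permutation test, two-sided, p = 0.33, the smallest it can give), -5.82 points without TG 2 and -13.7 points without TG 1. As a share of recovered reads, which are not scaled to gene length, the difference was -5.69 points. *Lama4* made up 0.668% and 2.72% in WT and 7.13% and 15.2% in TG, from the few reads given above. The share of *Lamb2* among the beta chains was 24.0% and 19.7% in WT and 21.7% and 19.0% in TG, which overlap (difference -1.49 percentage points, exact permutation test, two-sided, p = 0.67), and it was 0.666 points higher in TG without WT 1. *Nid2* made up 44.4% and 42.4% of the nidogen transcripts in WT and 28.9% and 29.3% in TG, a difference of -14.3 percentage points, far outside the spread between libraries of a genotype (exact permutation test, two-sided, p = 0.33). Per transcript of *Lamc1*, its binding partner, there were 0.982 and 0.884 of *Nid2* in WT and 0.658 and 0.679 in TG, whereas for *Nid1* the ratio was 1.23 and 1.201 in WT and 1.62 and 1.64 in TG.

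**Figure D3:**
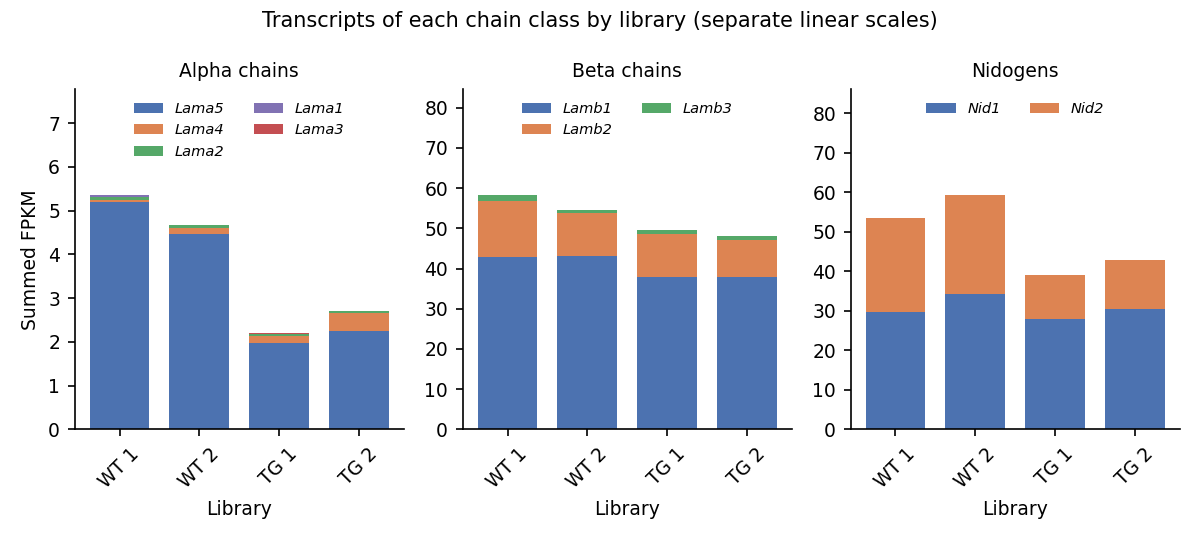
Summed FPKM of the alpha chains, the beta chains and the nidogens in each library, stacked by gene, on linear axes that start at 0 and differ between panels. Alpha chains reach 5.37 FPKM and beta chains 58.4 FPKM at most, and the *Nid2* part of the nidogen bars is smaller in both TG libraries.

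The rest of the basement membrane was followed through lists of genes by role. Of 22 other components, 13 were tested, with a median log2 fold change of -0.11. Limma put 4 lower (background 1.54%) and 0 higher (background 2.59%) at an adjusted p under 0.05. Voom put 5 lower (background 4.28%) and 1 higher (402 of all 11467 genes), adding *Sparc* (adjusted p = 0.00529) among the lower and *Fbln2* (adjusted p = 0.0434) as the higher. Without overlap between genotypes 6 were lower (background 20.3%) and 5 higher (background 30.2%). The 4 by limma were *Col4a1* and *Col4a2*, the chains of the collagen IV network to which nidogens tie the laminins, *Pxdn*, the peroxidase that crosslinks that network, and *Smoc2*, a calcium-binding matricellular protein. *Col4a1* had 82.3 and 75.2 FPKM (WT) against 36.0 and 38.1 FPKM (TG) (log2 fold change -1.08, SE 0.17, adjusted p = 0.00809) and was the one component called by the study's thresholds. For *Col4a2* the log2 fold change was -0.87 (adjusted p = 0.0464), for *Smoc2* -0.85 (adjusted p = 0.0318) and for *Pxdn* -0.74 (adjusted p = 0.0491). With all genes above 0 tested, the limma adjusted p was 0.0556 for *Col4a1*, 0.157 for *Col4a2* and 0.114 for both *Smoc2* and *Pxdn*, so that none of the 4 calls was kept. In the other direction, *Fbln2*, *Tinagl1* and *Npnt* had log2 fold changes between 0.62 and 0.64, with limma adjusted p-values from 0.0766 to 0.201.

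Of 13 laminin receptors and their anchors, 11 were tested and 0 had an adjusted p under 0.05 by limma (median log2 fold change -0.28). At an unadjusted p under 0.05 there were 3 lower (background 6.88%) and 1 higher (background not computed). Voom called 1 lower, *Utrn* (background 4.28%), and 1 higher, *Itga3* (402 of all 11467 genes), at an adjusted p under 0.05. *Dag1*, the dystroglycan to which laminin alpha chains bind, had 25.7 and 28.9 FPKM (WT) against 20.6 and 22.4 FPKM (TG). *Itgb1*, the common beta subunit of the laminin-binding integrins, had 414 and 374 FPKM (WT) against 331 and 326 FPKM (TG). Of the alpha subunits that pair with it, *Itga3* had 18.6 and 18.8 FPKM (WT) against 29.2 and 30.05 FPKM (TG) (log2 fold change 0.65, limma adjusted p = 0.0755) and *Itga6* 4.90 and 5.48 FPKM (WT) against 8.002 and 6.70 FPKM (TG). *Itga7* overlapped between genotypes.

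The enzymes that build the laminin-binding glycan of dystroglycan had a median log2 fold change of 0.015 over 11 tested genes, with 0 at an adjusted p under 0.05 by limma and by voom and 0 at an unadjusted p under 0.05 by limma. Of 18 enzymes of heparan sulphate, the chains that perlecan carries, 15 were tested and 0 had an adjusted p under 0.05 by limma. At an unadjusted p under 0.05 there were 3 lower (background 6.88%) and 1 higher (background not computed). Voom put 4 lower (background 4.28%) and 0 higher at an adjusted p under 0.05. Those 4 were the endosulfatases *Sulf1* and *Sulf2*, the epimerase *Glce* and the sulfotransferase *Hs6st1*. *Sulf2* had 35.2 and 38.5 FPKM (WT) against 24.2 and 23.8 FPKM (TG) (log2 fold change -0.61, limma adjusted p = 0.0893).

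**Figure D4:**
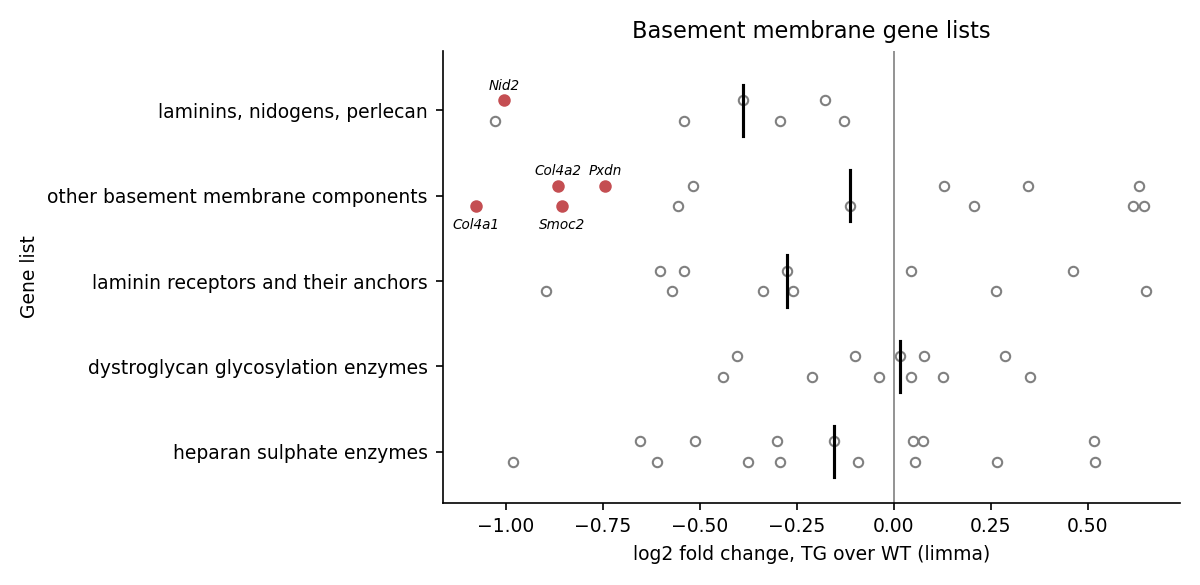
Log2 fold change between TG and WT by limma for the tested genes of 5 lists, a point for each gene and a black line at each list's median. Filled red points with a name have an adjusted p under 0.05, which holds for *Nid2* and 4 of the other basement membrane components, all lower in TG.

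Several cell types besides fibroblasts make these laminins, so their markers were read in the same libraries. None of 6 endothelial markers reached the test, with summed levels of 0.198 to 0.603 FPKM in WT and 0.0360 to 0.184 FPKM in TG, and *Tie1* was listed at 0 in every library. None of 5 Schwann cell markers did either (0.410 to 0.488 FPKM in WT, 1.01 to 1.28 FPKM in TG), with *Sox10* at 0. Of 6 epithelial markers *Krt5*, *Krt14* and *Krt8* were listed at 0 in every library and *Cdh1* in all but WT 1, and the list summed to 1.80 and 2.24 FPKM (WT) against 11.8 and 12.7 FPKM (TG). The keratin *Krt18* rose from 1.10 and 2.24 FPKM in WT to 11.5 and 12.2 FPKM in TG (log2 fold change 2.56, limma adjusted p = 0.00123). Of the skeletal muscle markers *Myod1*, *Myog*, *Myf5* and *Ckm* were at 0, and *Acta1*, which makes most of that list's sum of 9.99 to 11.5 FPKM in WT and 5.37 to 5.45 FPKM in TG, fell by 0.95 on the log2 scale (limma adjusted p = 0.0374). Of 7 smooth muscle and pericyte markers 4 were tested, with a median log2 fold change of -0.64 and none at an adjusted p under 0.05 by limma. Of the 4, *Cspg4* and *Notch3* were lower at an unadjusted p under 0.05 by limma (background 6.88%) and at an adjusted p under 0.05 by voom (background 4.28%). *Myh11* (0 and 0.179 FPKM in WT, 0.0647 and 0.376 FPKM in TG) and *Des* (0.155 to 0.435 FPKM) fell below the filter, and *Kcnj8* was listed at 0. The list summed to 109 and 138 FPKM (WT) against 101 and 107 FPKM (TG). It leaves out the smooth muscle actins and their partners, of which 4 were looked up after earlier values were known. Of these 4, 3 were lower in TG at an adjusted p under 0.05 by limma (background 1.54%). Their choice was not planned, so this count is a description. *Acta2* went from 4031 and 4797 FPKM to 1851 and 1996 FPKM (log2 fold change -1.19, limma adjusted p = 0.0139), *Actg2* had a log2 fold change of -1.87 (limma adjusted p = 3.99e-04) and *Cnn1* one of -1.78 (limma adjusted p = 0.00114). The other, *Tagln*, had a log2 fold change of -0.70 (limma adjusted p = 0.111, voom adjusted p = 0.00122). Among the fibroblast markers, *Pdgfrb* (log2 fold change -0.96, limma adjusted p = 0.0165) and *Col1a1* (-0.82, limma adjusted p = 0.0491) were lower in TG. Of the 7 tested, both TG libraries lay below both WT libraries for 5 (background 20.3%) and above them for 2 (background 30.2%). The 5 were these, *Col1a2*, *Col3a1* and *Thy1*. The 2 were *Pdgfra* (log2 fold change 1.08, limma adjusted p = 0.218) and *Vim* (0.15, limma adjusted p = 0.737). At an adjusted p under 0.05 voom put 3 lower (background 4.28%) and 1 higher (402 of all 11467 genes). It added *Col1a2* (log2 fold change -0.70, adjusted p = 0.0102) among the lower and had *Pdgfra* as the higher (2.19, adjusted p = 0.0330). The fibroblast list summed to 3920 to 4342 FPKM in WT and 3677 to 3776 FPKM in TG. The part of these markers in the levels of the laminins, nidogens and perlecan was not tested.

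By position in GRCm38, *Lamc1* spans 153218922 to 153332786 of Chr 1. Within 500 kb of it, 7 other genes were tested, with log2 fold changes from -0.61 to 0.33 and a median of -0.28. Of these, 5 were below 0, as were 42.5% of all tested genes, and 0 had a limma adjusted p under 0.05. *Lama5* spans 180176373 to 180225904 of Chr 2. Its 15 tested neighbours had a median log2 fold change of 0.050, and *Adrm1*, a ubiquitin receptor of the proteasome that ends just before *Lama5* begins in coordinates, stood at 0.66 (limma adjusted p = 0.123). *Nid2* spans 19751257 to 19811787 of Chr 14 and had 5 tested neighbours with a median of 0.048, from -0.73 to 0.78. The 32 tested neighbours of *Lamb2* had a median of -0.12, against 0.071 for all tested genes. Of these 32, 21 were below 0 (42.5% of all tested genes) and 0 had a limma adjusted p under 0.05. *Lamb2* is on Chr 9, *Hspg2* on Chr 4, *Lamb1* on Chr 12, *Nid1* on Chr 13 and both *Lama2* and *Lama4* on Chr 10.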

How the data were processed

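Poly(A) RNA of 4 TTF libraries, 2 WT and 2 TG, was sequenced in pairs by a strand-specific method. The authors aligned the reads to mm10, counted them per gene with Rsubread and deposited FPKM values, and tested with DESeq. The authors' own counts were not used here. Whether counting used strand is not given in the sources used here. FPKM values were tested with limma 3.58.1 in R 4.3.3 (empirical Bayes with a variance trend) on log2(FPKM + 0.5), for genes whose FPKM averaged 0.5 or more, adjusted by Benjamini-Hochberg. Fold changes are on that scale, which understates those of low genes. Whole reads were recovered from the ratios of a gene's FPKM between libraries and its exonic length, within 0.02 reads of a whole number, for 15472 of 15530 genes above 0 (99.6%), and were tested by voom with median-ratio size factors. Library totals came from the same ratios, and the deepest was 1.55 times the shallowest. Intervals and the floor of 3 reads cover counting error only. Shares within a class of chains were compared by exact permutation tests. Scripts were tested on simulated data.

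The 9 genes and the lists were chosen with earlier results of these data known. Named besides the 9 genes were other laminin chains (1 is not reported here), *Col4a1*, *Col4a2*, *Xist*, list genes with an adjusted p under 0.05 (at most 4 of a list) and the 3 genes with a mean of at least 5 FPKM nearest in profile to the gene with the lowest adjusted p. Markers were named to check cell types. The other receptors, heparan sulphate enzymes, matrix genes, smooth muscle genes and neighbours named were chosen after their values were seen. Alternatives were 2 other pseudocounts, 2 other filters, no variance trend, 2 other scalings, a replicate block, each library left out and voom.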

Additional observations from a re-analysis of the deposited data

How the results depend on the processing

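All 7 tested genes kept a log2 fold change below 0 in each of the 13 alternatives, from -1.10 to -0.93 for *Nid2*, -1.25 to -0.91 for *Lama5* and -0.70 to -0.08 for *Hspg2*. The count called by the study's thresholds, 0, became 2 with voom. The count lower at an adjusted p under 0.05, 1, became 3 with voom, 0 with all genes above 0 tested and 0 without the variance trend, and it ranged from 0 to 1 as each library was left out, where a lone library is assumed to vary like those of the other genotype. With the replicate number as a block the count was 0 and the adjusted p of *Nid2* was 0.0619 (limma). Across 11524 genes, the difference between libraries 1 and 2 in WT and that in TG had a correlation of -0.0276. This value cannot show whether same-numbered libraries were prepared together, which is not given in the sources used here. The paper states that samples of both genotypes were processed in parallel. Over all tested genes, the study's thresholds called 54 lower and 70 higher, against 145 and 123 with voom, 8 and 12 with the block, 6 and 3 without the trend, 1 and 0 with all genes above 0, 1 and 0 without WT 1 and 2 and 7 without WT 2. At an adjusted p under 0.05 the counts were 178 lower and 298 higher, against 491 and 402 with voom, 101 and 153 without the trend, 64 and 114 with the block, 22 and 22 with all genes above 0, 28 and 86 without WT 1, 20 and 46 without WT 2 and 135 and 170 without TG 1. The cause was not tested. Depth limits *Lama2* and *Lama4*, with 2 to 27 reads a library.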

Other observations

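The tested genes nearest to *Nid2* in their profile over the 4 libraries, by Euclidean distance between centred log2(FPKM + 0.5) values among 7814 genes with a mean of at least 5 FPKM, were *Tnc*, *Col5a1* and *Ice1*. *Tnc*, the matrix protein tenascin-C, had 83.9 and 90.6 FPKM (WT) against 41.7 and 46.3 FPKM (TG), at a distance of 0.0303. *Col5a1*, a chain of the collagen that regulates fibril width, had 130.3 and 138 FPKM (WT) against 64.6 and 71.7 FPKM (TG), at a distance of 0.0307. *Ice1*, a gene for small nuclear RNA transcription, followed at 0.0972. The genes were chosen by this likeness, which rests on 4 libraries, so their difference between genotypes is a description.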
